A study of Mus musculus with 12 samples.

Results

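RAB GTPase genes were taken as the genes whose symbol is Rab followed by a number and at most 1 letter, which gave 59 of the 56691 genes in the count table. They were followed in mouse oocytes of 2 genotypes at 3 stages of meiotic maturation, with 2 libraries in each of the 6 groups and 12 libraries in all. WT oocytes were compared with oocytes of Alkbh5-/- (KO) mice, a total knockout on the C57BL/6 background in which CRISPR-Cas9 removed exon 1 with the start codon of the gene for the RNA demethylase ALKBH5, so the surrounding cells of the KO follicle lacked the enzyme too. According to the methods, females of 3 weeks were primed with PMSG for 44 h, and all groups shared this treatment. Another part of the study's documentation gives an age of 4 to 6 weeks. Oocytes were collected after 0 h of culture for the germinal vesicle (GV) stage, 4 h for germinal vesicle breakdown (GVBD) and 16 h for metaphase II (MII), in pools of 10 or 20 oocytes depending on the passage. Since KO oocytes mostly failed to reach GVBD and samples were taken by time in culture, KO GVBD and KO MII libraries may hold oocytes of earlier stages, and genotype and stage reached cannot be told apart there.

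RAB proteins are small GTPases that act as molecular switches on membranes. Bound to GTP, each one recruits effector proteins to a particular compartment, and there they drive vesicle budding, transport, tethering or fusion. Exchange factors switch them on, GTPase-activating proteins switch them off, and a lipid anchor holds them on the membrane. In oocytes, RAB11A-positive vesicles are known to move actin and to position the spindle, and RAB27A and RAB3A are known for their part in the exocytosis of cortical granules, the vesicles released at fertilization.

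Because the largest differences within the family were between GV and MII oocytes, in which the length of the poly(A) tail bears on whether stored mRNA is kept or lost, the annotated transcript ends were examined for 2 kinds of motif. The cytoplasmic polyadenylation element was searched as TTTTAT or TTTTAAT, and the polyadenylation hexamer as AATAAA or ATTAAA, on the transcript strand of the last 100 bases of 1 principal transcript per gene (GENCODE M21, GRCm38). An annotated end is not always the one used in oocytes. Of the 59 RAB ends, 10 (16.9%) held the first motif, against 16.5% of 21747 protein-coding gene ends. The second was present in 50 (84.7%), against 74.2%. The sites below are shown 5′ to 3′, and capitals mark the motif. They come from RAB genes that differed in whether they were called lower at MII in WT, as described further on. The first 6 are sites of the polyadenylation element in well-expressed RAB genes that were not called there.
Rab11a, chr9:64715341-64715370, minus strand: tttggacttttTTTTAATctattgatttgg
Rab2b, chr14:52261798-52261827, minus strand: aaattttctaatTTTTATtgttaatgaccg
Rab5a, chr17:53507622-53507651, plus strand: accggtgtttagTTTTATattgaggtgctc
Rab6a, chr7:100641207-100641236, plus strand: ttgactcttttgTTTTATtttgacatggca
Rab8b, chr9:66843718-66843747, minus strand: tttaaaaatgaaTTTTATtccaggtgaact
Rab9, chrX:166457322-166457351, minus strand: atatgtgtatatTTTTATgtaattagcatt
Rab21 and Rab38 were called lower and held neither motif. Rab7, Rab14 and Rab10 held only the hexamer and were not called. The next 4, chosen as examples, come from RAB genes that were lower at MII in WT and held only the hexamer in this window.
Rab3b, chr4:108943277-108943306, plus strand: gggcttaagcaaAATAAAatgcccattgct
Rab1a, chr11:20226816-20226845, plus strand: tgagaatttcacAATAAAatcatagtttac
Rab4a, chr8:123835250-123835279, plus strand: ttaacacctggaAATAAAgtggaacggagt
Rab5c, chr11:100715013-100715042, minus strand: cccccagcttacATTAAAggatatgcaacc

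Libraries held 28335815 to 39409401 endogenous counts, and a further 221927 to 838409 fell on synthetic ERCC RNAs added to each tube. Alkbh5 had 5355 to 10181 counts in WT libraries and 54 to 143 in KO libraries. The 10 oocyte markers were above 0 in every library. The summed markers of cumulus and granulosa cells were low throughout, at 37.4 to 85.1 CPM (counts scaled to the endogenous total of the library). Those of blood ranged from 9.47 to 3352 CPM and separated some groups, with 2085 and 1840 CPM in WT GVBD against 9.72 and 21.4 in KO GVBD, and 1876 and 3213 in KO GV. They also differed within groups, at 38.9 and 3352 CPM in WT GV and at 564 and 9.47 in KO MII. Those of heart muscle ranged from 13.7 to 178.5 CPM, with 169 and 94.8 in WT MII against 13.7 and 20.01 in KO MII. The part of either list in the results below was not tested. One library, KO MII 2, had the fewest genes detected (19837 against 21938 to 24436 in the others) and also the fewest RAB genes, 42 against 51 to 55. In the text below, scaled counts are counts divided by the ERCC total of the library relative to the geometric mean of all 12. A gene was called when edgeR's quasi-likelihood test gave a Benjamini-Hochberg adjusted p under 0.05 over all tested genes and its log2 fold change was at least 1 in size. With pooled oocytes, fewer intact oocytes in a tube and less mRNA per oocyte cannot be told apart. By the study's methods polyadenylated mRNA was reverse-transcribed, so the amount of an mRNA and the length of its tail cannot be told apart either.

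The RAB family took 0.140% to 0.208% of the endogenous counts of a library. On average, 11 of the 59 genes reached 1000 counts, 21 lay between 100 and 1000, 17 between 10 and 100, and 10 below 10. Of those 10, Rab26 and Rab39 were at 0 in every library and the other 8 never exceeded 44 counts. Altogether 39 genes were detected in all 12 libraries.

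A single gene, Rab7, dominated the family. Rab7 (ENSMUSG00000079477, chr6:87999106-88045270, minus strand), which directs transport to late endosomes and lysosomes, carried 26.8% to 44.5% of all RAB counts of a library. Per kilobase of exon and per 1000 ERCC counts, its level in WT GV oocytes was 17.1 ± 0.50 (SD, n = 2). On the same per-length scale Rab38, known from lysosome-related organelles, followed at 4.32 ± 0.94, and Rab8a, which acts in exocytosis and polarised transport, at 4.10 ± 0.62. These neighbours differed by less than their spread. Rab3b, of the RAB3 group of regulated secretion, stood at 3.16 ± 0.31, Rab11a of the recycling endosome at 2.87 ± 0.07 and Rab2a, which acts between the ER and the Golgi, at 2.12 ± 0.09. With the length of the longest transcript as divisor in place of all exons, Rab7 became 20.7 and Rab11a 3.67, and the same 6 genes led. Rab14, with 13589 bases of exon and a longest transcript of 5003, depended more on this choice than those 6.

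Within several groups of paralogues 1 gene carried nearly all the signal. In WT GV oocytes Rab11a was at 2.87 against 0.12 ± 0.01 per kilobase for Rab11b, and Rab6a of the Golgi at 0.79 ± 0.18 against 0.013 ± 0.013 for Rab6b. The same held for Rab7 against Rab7b, at 0.012 ± 0.005, for Rab9 (0.90 ± 0.03), which returns receptors from late endosomes, against Rab9b (0.005 ± 0.001), and for Rab27a (0.60 ± 0.15) against Rab27b (0.006 ± 0.009). Other groups were more even. Rab1a and Rab1b, which work between the ER and the Golgi, were at 0.44 ± 0.16 and 0.38 ± 0.04 per kilobase, a difference within their spread. Rab33a and Rab33b stood at 0.108 ± 0.013 and 0.078 ± 0.011, and Rab8b, at 1.09 ± 0.004, reached a sizeable part of the level of Rab8a. Among the early-endosomal RAB5 genes, Rab5c (0.24 ± 0.14) was above Rab5b (0.081 ± 0.002) and Rab5a (0.059 ± 0.005) on this scale. The RAB3 genes ranged from Rab3b through Rab3d (0.26 ± 0.16) and Rab3a (0.16 ± 0.01) to Rab3c (0.010 ± 0.002).

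By role, RAB genes of the late endosome, lysosome and autophagy held 34.3% to 51.0% of RAB counts and those of recycling and transport to the plasma membrane 30.6% to 40.7%. The 8 genes of regulated secretion held 11.3% and 9.53% in the WT GV libraries, and 2.16% to 7.10% in the other 10. Most of that share in WT GV came from Rab3b alone, with 4056 and 2968 counts there and 356 to 2142 elsewhere. The 8 early-endosomal genes held 5.50% to 8.92% in all GV and GVBD libraries and 2.30% to 3.59% in the 4 MII libraries, so the MII libraries of both genotypes lay below every earlier one. Rab21 had the most counts of these 8 in each GV and GVBD library, at 1282 to 3830, against 341 to 1000 in the MII libraries. The share of the group thus rests largely on this gene.

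**Figure D1:**
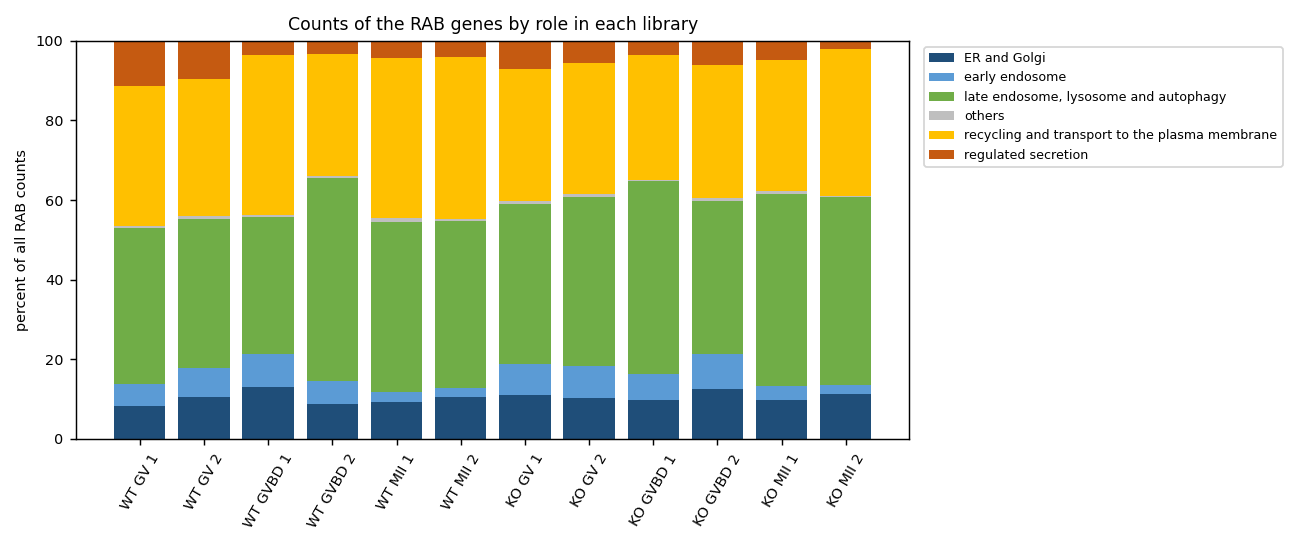
Percent of all RAB counts taken by each role group (stacked bars) in each of the 12 libraries, one bar per library, with no error bars because each bar is 1 library. The early-endosomal share was 2.30% to 3.59% in the 4 MII libraries and at least 5.50% in the others. Regulated secretion was highest in the WT GV libraries at 11.3% and 9.53%, most of it from Rab3b.

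To follow maternal RAB mRNA through maturation, MII was compared with GV oocytes. In WT, 16 of the 48 RAB genes tested were called, all of them lower at MII (33.3%), against 30.9% of all 18816 genes tested and 30.5% called in the lower direction. The median log2 fold change was -1.03 for the RAB genes and -1.06 for all genes, so the family moved close to the background as a whole and its members differed widely from each other.

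Rab3b fell most among the well-expressed members. Its scaled counts were 4489 and 3904 in the GV libraries, then 667 and 660.0 at GVBD and 501 and 360.1 at MII, a log2 fold change of -3.29 ± 0.53 (SE, n = 2 per group, edgeR adjusted p = 8.69e-09). Rab21, an early-endosomal RAB linked to integrin traffic, had 1588 and 1744 in WT GV against 254 and 175 in WT MII, and fell by 2.96 ± 0.54 on the log2 scale (edgeR adjusted p = 6.06e-07). In neither gene did the GV and MII libraries overlap. Both MII libraries were below both GV libraries for 29 of the 48 RAB genes and 58.0% of all genes tested in WT. Rab38 went from 2961 and 2169 to 614 and 567 scaled counts, and fell by 2.12 ± 0.51 (edgeR adjusted p = 0.000237). It thereby moved from rank 2 to rank 5 of the family per kilobase of all exons, whereas Rab3b moved from 4 to 12 and Rab21 from 9 to 22.

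Of the 8 early-endosomal genes, 5 were called lower at MII in WT, where 30.5% of all genes tested were. This share is also the background for the counts of the other roles below. Shares called were not tested between roles. Besides Rab21 these were Rab4a, which sorts cargo into rapid recycling, with 542 and 534 scaled counts at GV against 156 and 107 at MII (log2 fold change -2.04 ± 0.57), its paralogue Rab4b (-3.31 ± 1.06), Rab5c, a RAB of early endosome fusion (-2.13 ± 0.67), and Rab22a, which acts in endosomal sorting (-1.37 ± 0.54). Rab5a, Rab5b and Rab31 had values of -0.91 ± 0.72, -0.75 ± 0.69 and -1.27 ± 0.67 and were not called.

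Of the 12 ER and Golgi RAB genes tested, 4 were called lower at MII in WT, beside 30.5% of all genes tested. Rab1a (-1.81 ± 0.55) and Rab1b (-1.92 ± 0.60) fell alongside the rarer Rab33a (-3.10 ± 1.15) and Rab39b (-3.79 ± 1.24). Rab6a, Rab18 of lipid droplets and the ER, and Rab2a were at -0.57 ± 0.50, -0.24 ± 0.51 and -0.27 ± 0.49, without a call. Among 7 late-endosomal and lysosomal genes tested, 3 fell, namely Rab38, Rab32 (-1.81 ± 0.54), its relative in the same organelles, and Rab29 (-3.14 ± 0.90). Rab7 itself was not called, with 17169 and 16472 scaled counts at GV and 17018 and 10560.0 at MII, and these groups overlapped. Among the 12 recycling and plasma membrane genes tested, 2 fell, Rab13 of cell junctions (-2.29 ± 0.64) and Rab35 of endosomal recycling (-1.36 ± 0.56). Rab3b and Rab3c (-2.79 ± 1.12) were the 2 called among 5 tested in regulated secretion. Rab27a, with 1035 and 721 scaled counts at GV and 909 and 464 at MII, and Rab3a (126 and 142 against 78.9 and 45.4) were not.

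Other members had values near 0 between GV and MII in WT. Rab14, which acts between the Golgi and recycling endosomes, had 3986 and 3841 scaled counts in WT GV and 5858 and 3541 in WT MII, a log2 fold change of 0.26 ± 0.47. Rab2b, with 211 and 239 against 324 and 184, was at 0.17 ± 0.57, and Rab12 at -0.09 ± 0.55. Rab10, which serves transport to the plasma membrane, was at -0.24 ± 0.50 and Rab8b at -0.23 ± 0.49. Rab11a, with 3178 and 3291 against 2045 and 1476, lay lower at -0.88 ± 0.48. Its groups did not overlap, and 58.0% of all genes tested were lower at MII without overlap. None of these passed the test.

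These counts depend on the scale. With TMM scaling, which sets the bulk of the transcriptome near 0 (all-gene median -0.14), 7 RAB genes were called (14.6%, against 24.7% of all genes), of which 5 were lower (Rab21, Rab29, Rab38, Rab3b and Rab4a) and 2 higher, Rab14 at 1.17 and Rab2b at 1.07. The number called with ERCC scaling was 6 without WT GV replicate 1, 3 without WT GV replicate 2 and 4 without WT MII replicate 2, against 15.3%, 15.2% and 16.4% of all genes. Where a library is left out, its group keeps 1 library, which is assumed to vary like the remaining pairs in the fit. Rab3b and Rab21 were among the called genes in each of those settings. Leaving out WT MII replicate 1 gave 16, of which 12 were among the 16 above (30.4% of all genes).

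**Figure D2:**
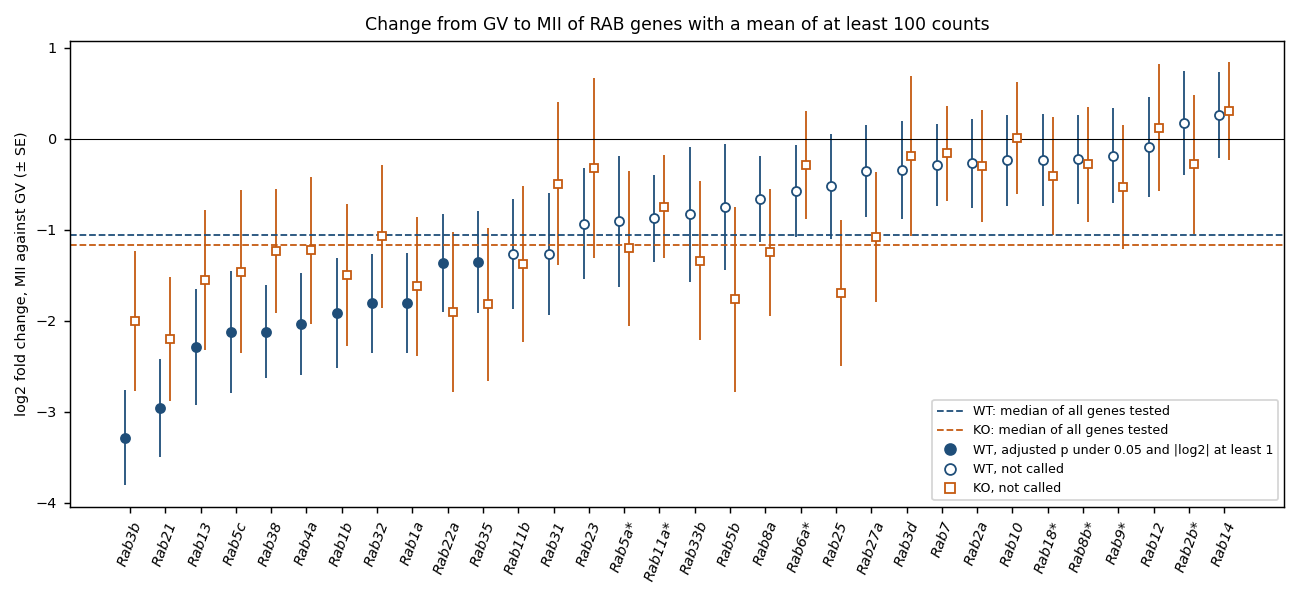
Log2 fold change of MII against GV (± SE, y axis) for the 32 RAB genes that averaged 100 counts or more (x axis, ordered by the WT value), in WT (circles, filled where called) and KO (squares), with the median of all genes tested as dashed lines. An asterisk marks TTTTAT or TTTTAAT in the last 100 bases of the transcript. The 11 called genes lie at the left without an asterisk, from -3.29 for Rab3b to -1.36 for Rab35, and Rab14 lies at the right at 0.26.

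The polyadenylation element, whose matches say nothing on their own about its use, was unevenly spread over this order. Among the 32 RAB genes that averaged 100 counts or more, 7 held TTTTAT or TTTTAAT in the window, and 0 of these 7 were called lower at MII in WT (edgeR, median log2 fold change -0.24). They were Rab5a, Rab11a, Rab6a, Rab18, Rab8b, Rab9 and Rab2b. Of the 25 without it, 11 were called lower, with a median of -1.27. In the less expressed range, Rab3c held the element and was called lower, 1 of the 9 RAB genes tested that had it. Over all genes that averaged 100 counts or more, 19.3% of 1814 genes with the element were called lower (median -0.26) and 36.2% of 7296 without it (median -0.85), so the RAB genes leaned the same way as the rest of the transcriptome. Rab14, Rab10, Rab12, Rab2a and Rab7 had no match in the window and were not called either. Whether tail length altered these counts was not tested.

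In KO oocytes none of the 49 RAB genes tested was called between GV and MII by edgeR, against 3.28% of 18777 genes. At an unadjusted p under 0.05 there were 4, all lower (8.16%, against 24.6% of all genes), and the DESeq2 Wald test called 2, Rab21 and Rab3b (4.08%, against 16.3%). The median log2 fold change was -1.46 for the RAB genes and -1.17 for all genes. Rab21 had the lowest value among well-expressed members, with 3193 and 2780.0 scaled counts in KO GV and 934 and 366 in KO MII (-2.20 ± 0.68, edgeR adjusted p = 0.0875). Rab3b was next, with 2867 and 1961 against 970.0 and 238 (-2.0 ± 0.77), followed by Rab22a at -1.90 ± 0.88. The highest values were those of Rab14 (0.31 ± 0.54), Rab12 (0.12 ± 0.70) and Rab10 (0.01 ± 0.62), and Rab14 and Rab12 were also among the 3 highest in WT.

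The spread between the KO MII libraries was wide. Rab8a had 5145 scaled counts in KO MII 1 and 1235 in KO MII 2, Rab3d 1618 and 201, and Rab38 2429 and 755. Further, 17 RAB genes were at 0 in KO MII 2, and 6 of them were above 0 in the other 11 libraries. Without KO MII replicate 1, 35 of 49 RAB genes were called lower (71.4%), among them all 16 called in WT, against 59.7% of all genes called. That value rests on KO MII 2 alone, the library with the fewest genes detected, and takes its spread from the KO GV pair. Without KO MII replicate 2 there were 3 (6.12%, against 22.0% of all genes), which were Rab21, Rab3b and the rarely detected Rab37. The KO count therefore changed with 1 library. The genotype difference in the change from GV to MII, as an interaction term, was called for 0 of 53 RAB genes and 0.0% of 20807 genes by edgeR, with 0 RAB genes at an unadjusted p under 0.05 (5.75% of all genes) and 0 by DESeq2 (0.782% of all genes). That term ranged among well-expressed members from -1.18 ± 0.87 for Rab25, of epithelial recycling endosomes, to 1.29 ± 0.86 for Rab3b.

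**Figure D3:**
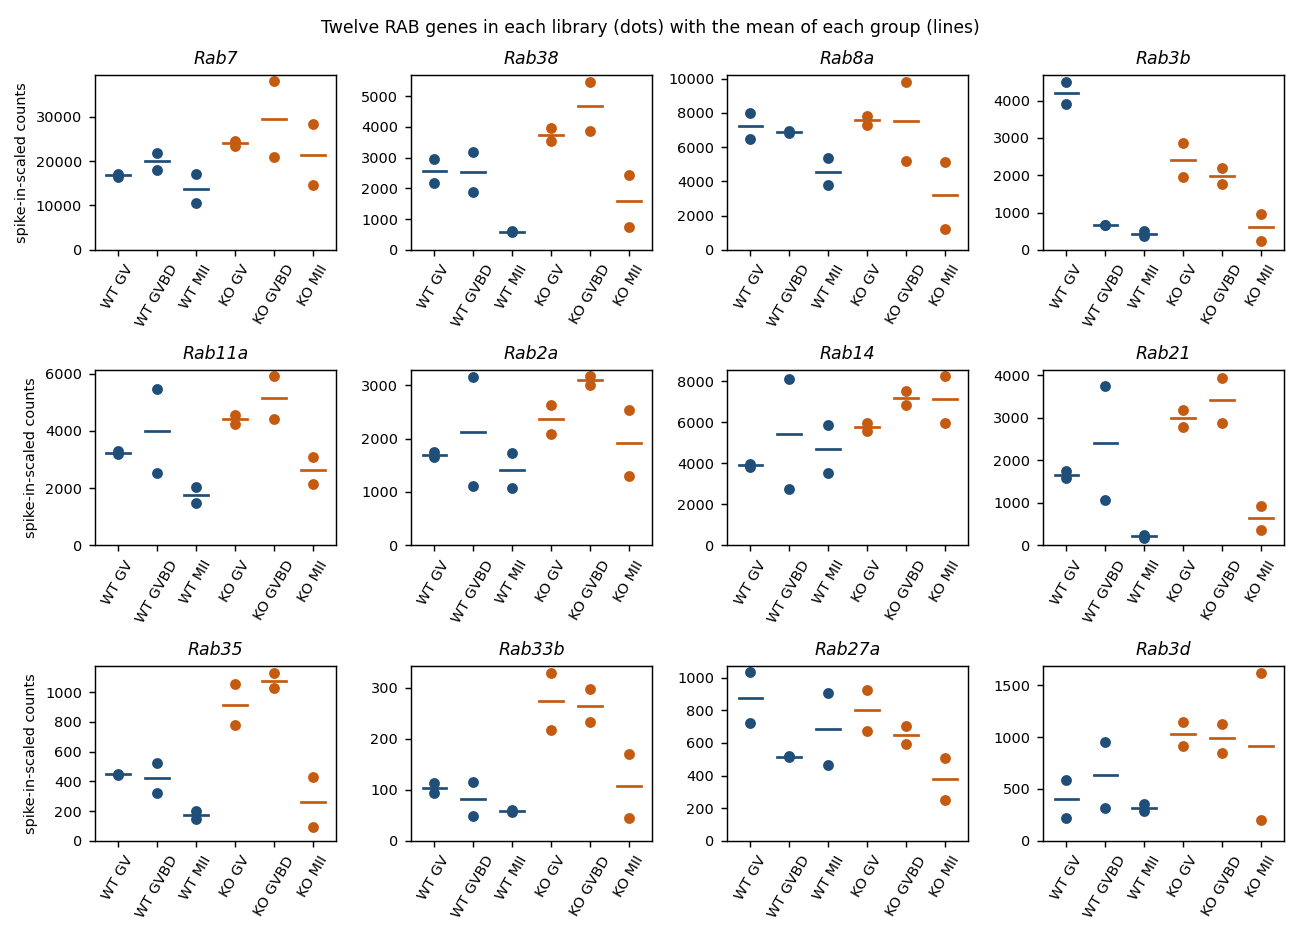
Spike-in-scaled counts (y axis, starting at 0) of 12 RAB genes in each library, with the 2 libraries of a group as dots and their mean as a line, WT in blue and KO in orange. In WT, Rab3b stood at 4489 and 3904 at GV and at 667 and 660.0 at GVBD, whereas its KO GV and KO GVBD libraries overlapped. Rab35 and Rab33b were higher in both KO libraries than in both WT libraries at GV and GVBD.

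Between GV and GVBD no RAB gene was called by edgeR in either genotype. In WT, edgeR called 0 of 52 RAB genes tested, against 0.0511% of 19566 genes, with a median of 0.05 for RAB genes and 0.01 for all. In KO it called 0 of 49, against 0.22% of 19064. Unadjusted p-values under 0.05 numbered 2 in WT and 3 in KO (6.25% and 7.65% of all genes), and DESeq2 called 1 (Rab3b) and 0 (1.9% and 1.18% of all genes). Without WT GV replicate 2 edgeR called 2 in WT, Rab3b and the sparse Rab27b, and without KO GVBD replicate 1 it called Rab27b in KO (2.73% and 2.44% of all genes). Rab3b (chr4:108879063-108943324, plus strand) was the one well-expressed member far from 0 in WT, at -2.66 ± 0.38 (edgeR adjusted p = 0.10). Its GV and GVBD libraries did not overlap, and 19.3% of all genes tested in WT were lower at GVBD without overlap. In KO the value of Rab3b was -0.28 ± 0.30, and the lowest there was that of Rab2b at -1.46. The genotype difference in this change, a comparison added after the counts of Rab3b had been seen, was 2.38 ± 0.45 for Rab3b (edgeR unadjusted p = 0.000322, adjusted p = 0.317 over 21371 genes, of which 0.00936% were called). DESeq2 gave it an adjusted p of 0.000225. edgeR called 0 of 52 RAB genes in that comparison, with 2 at an unadjusted p under 0.05 (7.39% of all genes), and DESeq2 called Rab3b alone among them (1.16% of all genes).

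To ask whether loss of ALKBH5 altered RAB mRNA, KO was compared with WT at each stage. At GV, edgeR called 0 of 51 RAB genes tested, against 0.0977% of 19452 genes. At GVBD it called 1 of 49, against 2.54% of 19462, and at MII 0 of 43, against 0.803% of 17566. Unadjusted p-values under 0.05 were found for 13, 5 and 0 RAB genes, or 25.5%, 10.2% and 0.0% of those tested beside 17.9%, 14.9% and 7.32% of all genes. DESeq2 called 2 (Rab35 and Rab3d), 2 (Rab19 and Rab3b) and 0, against 6.06%, 4.63% and 2.05% of all genes to which it gave an adjusted p. At GV, edgeR called Rab3d without WT GV replicate 1 and Rab27b without WT GV replicate 2 (1.26% and 3.88% of all genes), and at GVBD it called Rab27b beside Rab19 without KO GVBD replicate 1 (2.75%). With stage as a covariate, edgeR called 0 of 54 RAB genes over all stages, against 1.26% of 22004, with 11 at an unadjusted p under 0.05 (20.4%, against 18.8% of all genes) and 1 called by DESeq2 (Rab33b, against 7.83% of all genes).

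On the ERCC scale most of the transcriptome was somewhat higher in KO, and the RAB genes followed it. The median log2 fold change of the RAB genes tested was 0.46 at GV, 0.38 at GVBD and 0.47 at MII, beside 0.36, 0.23 and 0.30 for all genes. Both KO libraries were above both WT libraries for 25 of 51 RAB genes at GV, 11 of 49 at GVBD and 7 of 43 at MII, beside 42.2%, 30.3% and 22.1% of all genes tested. With TMM scaling the RAB medians became 0.10, 0.09 and 0.04.

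Rab33b, a Golgi RAB that also takes part in autophagy, had the highest value of KO against WT over all stages among the well-expressed members, though not at MII alone. Its scaled counts were 330 and 218 in KO GV against 114 and 93.4 in WT GV, 298 and 232 against 116 and 49.6 at GVBD, and 171 and 45.4 against 60.3 and 56.2 at MII. The genotypes did not overlap at GV and GVBD and overlapped at MII. Over all stages the log2 fold change was 1.32 ± 0.38 (n = 6 libraries per genotype, edgeR adjusted p = 0.0992), which is 1.03 above the median gene. Rab35 had 1051 and 781 in KO GV against 447 and 446 in WT GV, and 1126 and 1027 against 527 and 320 at GVBD, again without overlap. Its value over all stages was 0.99 ± 0.34 (edgeR adjusted p = 0.15). Rab3d, an exocytic RAB, was at 1.16 ± 0.45, but its WT GV libraries already differed from each other, at 590 and 222 scaled counts. Without KO MII replicate 2, edgeR called Rab33b, Rab35 and Rab38 as higher in KO over all stages (5.56%, against 4.35% of all genes).

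At MII the largest KO values belonged to Rab21 (1.60 ± 0.90), Rab3d (1.5 ± 0.87) and Rab38 (1.43 ± 0.85). For Rab21, the KO libraries had 934 and 366 scaled counts and the WT libraries 254 and 175, without overlap, and the same was true of Rab38, at 2429 and 755 against 614 and 567. The lowest values were those of Rab25 (-1.42 ± 1.0), Rab27a (-0.86 ± 0.87) and Rab8a (-0.51 ± 0.77). Rab27a had 511 and 248 scaled counts in KO MII against 909 and 464 in WT MII, and these overlapped. None passed the test, and the lowest edgeR adjusted p of a RAB gene at this stage was 0.812.

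At GV, the lowest KO values were those of Rab3b, with 2867 and 1961 scaled counts in KO against 4489 and 3904 in WT (-0.80 ± 0.23), Rab32 (-0.53 ± 0.27) and Rab8b (-0.32 ± 0.28). At GVBD they were those of Rab2b, with 93.6 and 98.7 against 156 and 189 (-0.85 ± 0.60), Rab5b (-0.26 ± 0.60) and Rab8b (-0.26 ± 0.53). Rab11a, Rab5a and Rab7 had values of 0.44 ± 0.16, 0.74 ± 0.55 and 0.51 ± 0.15 at GV and of 0.57 ± 0.80, 0.45 ± 1.02 and 0.64 ± 0.67 at MII, without a call.

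**Figure D4:**
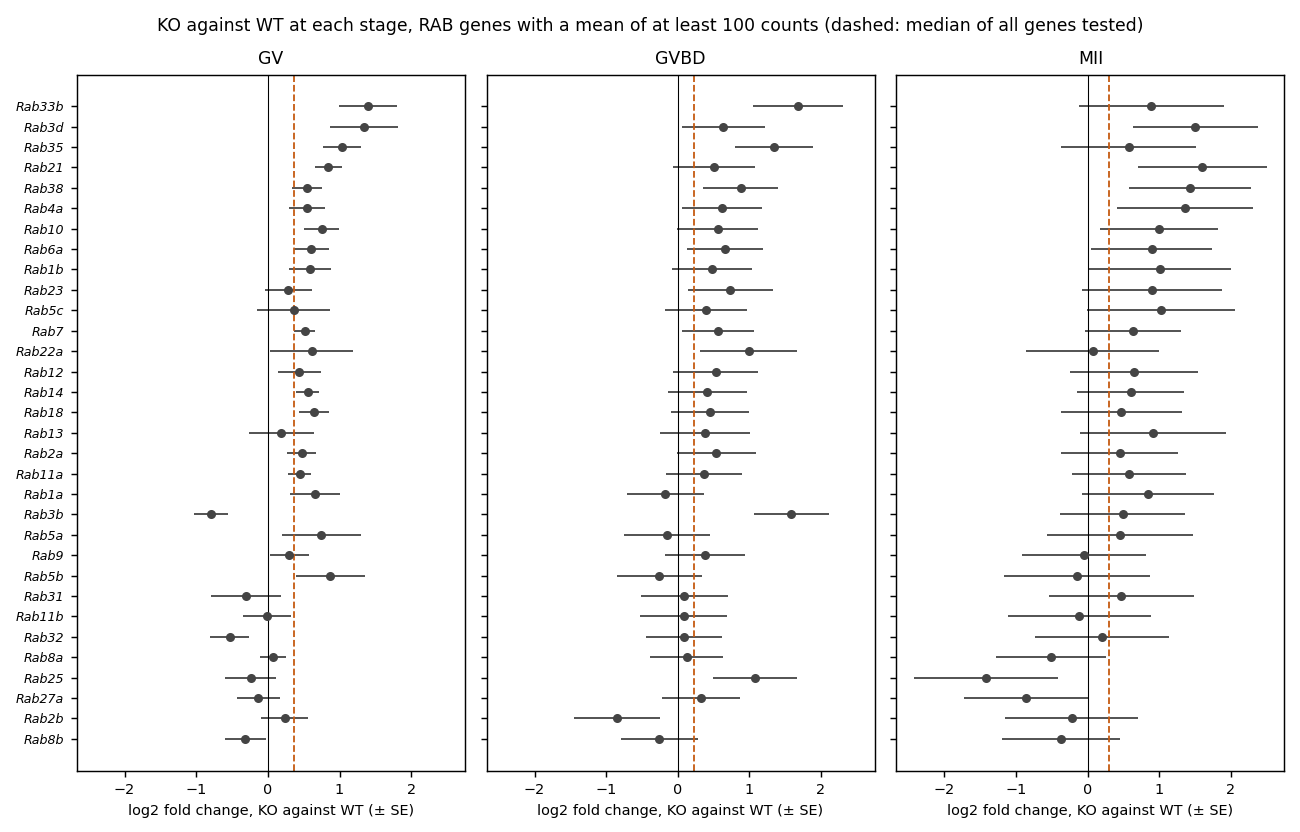
Log2 fold change of KO against WT (± SE, x axis) at GV, GVBD and MII for the 32 RAB genes that averaged 100 counts or more (y axis, ordered by the value over all stages), with the median of all genes tested as a dashed line at 0.36, 0.23 and 0.30. Most points lie to the right of 0 at each stage, error bars are widest at MII, and Rab3b lies at -0.80 at GV and 1.58 at GVBD.

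The one RAB gene called in KO was Rab19 (ENSMUSG00000029923, chr6:39381175-39390380, plus strand), a Golgi-associated RAB with very few reads. It had 43 and 25 counts in the WT GVBD libraries, 0 in both KO GVBD libraries, and 0 to 8 in the other 8. With an assumed floor of 3 counts per KO library, the ratio of WT to KO at GVBD was 9.7, a value set by that floor (edgeR adjusted p = 0.0359). Rab19 passed the filter on low counts in this comparison only through the WT GVBD libraries, where it was high. It was not called with TMM scaling (0.149% of all genes called), and was called neither without WT GVBD replicate 1 (0.0257%) nor without WT GVBD replicate 2 (0.0411%). The same WT GVBD libraries were the only ones with counts of Krt5, Krt14 and Krt1, 3 of the 4 keratinocyte markers, which were at 0 in the other 10. The fourth, Krt10, was above 0 in every library. Summed over the list, keratinocyte markers reached 92.8 and 70.01 CPM in WT GVBD and 4.27 to 25.1 elsewhere. The blood markers separated the same groups. They were at 2085 and 1840 CPM with all 6 markers detected in WT GVBD. In KO GVBD they were at 9.72 and 21.4 CPM, with 1 of 6 at 0 in each library. Elsewhere they were at 3352 CPM in WT GV 2 and at 1876 and 3213 CPM in KO GV. The part of either list in the Rab19 result was not tested.

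Genes listed for action on RAB proteins were described beside them, 132 in all. Some GTPase-activating proteins were taken by the symbol prefix Tbc1d, without a check of each for action on a RAB. That prefix also brought in Tbc1d22bos, with 6 counts in KO GV 1 and 0 elsewhere. In KO against WT, edgeR called 0 of 121 tested at GV, 1 of 122 at GVBD and 0 of 110 at MII, against 0.0977%, 2.54% and 0.803% of all genes. At an unadjusted p under 0.05 there were 21, 17 and 5, which is 17.4%, 13.9% and 4.55% of the list beside 17.9%, 14.9% and 7.32% of all genes. The gene called was Rab3il1, an exchange factor for RAB8 and RAB3-binding protein, with 326 and 647 counts in WT GVBD and 1746 and 1504 in KO GVBD (log2 fold change 2.16 ± 0.55, edgeR adjusted p = 0.0369). In WT it had 885 and 833 counts at GV and 2026 and 2159 at MII, so by counts its WT GVBD libraries were the lowest of the 12. These counts are not scaled to ERCC. On the ERCC scale its log2 fold change from GV to MII in WT was 0.256 ± 0.496 (edgeR adjusted p = 0.77).

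From GV to MII in WT, 24 of 118 of these genes tested (20.3%) fell and 0 rose, against 30.5% of all genes called lower, with a median of -0.79 beside -1.06 for all genes. They were 1 of 7 in prenylation and recycling, 6 of 34 exchange factors, 7 of 34 GTPase-activating proteins and 10 of 43 effectors. In KO, 2 of 119 fell (1.68%), against 3.28% of all genes called. Tbc1d7, a TBC-domain protein, had 943 and 539 counts in WT GV and 53 and 44 in WT MII (-4.90 ± 0.63). Mon1a, part of the exchange factor of RAB7, had 1726 and 902 against 80 and 161 (-4.55 ± 0.59). Rab7 mRNA itself was not called in that comparison. Rab3ip, an exchange factor of RAB8, fell by 2.41 ± 0.57 on the log2 scale, and Rph3al and Myrip, effectors of RAB3 or RAB27 in secretion, by 2.44 ± 0.53 and 1.83 ± 0.54.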

How the data were processed

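Messenger RNA of 12 libraries of pooled mouse oocytes was measured by RNA-seq. The authors deposited raw read counts, as integers and not normalized, for genes and 92 ERCC sequences. By their methods, reads were trimmed with Cutadapt, aligned with Hisat2 to GRCm38 (mm10) plus ERCC, restricted to unique alignments and passed to StringTie, and groups were compared with DESeq2 on the ERCC scale. Unique alignment lowers counts of near-identical paralogues. The submitters' processing notes list cutadapt 1.9, HISAT2 2.0.4 and StringTie 1.3.4d, other versions than part of the paper, and the extraction protocol in the labels describes another, bulk preparation. Counts include PCR copies without molecular identifiers.

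Libraries were grouped by labelled genotype and stage. Symbols matched 52073 genes (91.9%). Comparisons were fitted on their own groups with edgeR 4.0.16 (glmQLFit, glmQLFTest, R 4.3.3), library sizes in proportion to summed ERCC counts and filterByExpr as filter, two-sided. SE was derived from the log2 fold change and F. The step was tested on simulated data with the same spread for every gene and with large changes only. That test does not cover smaller changes or the uneven spread of these libraries. The study describes the libraries of a group as biologically independent, and separate animals are not stated, so p-values cover the spread between these libraries. The members, role groups and gene lists were chosen with earlier results of these data known.

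Genes named were the 6 highest per kilobase in WT GV, RAB genes called in a genotype comparison, the 3 highest and 3 lowest log2 fold changes (mean of at least 100 counts) per comparison, Rab27a, Rab3a, Rab11a, Rab5a, Rab7 and Rab35, and their paralogues. Other RAB genes called at MII in WT, Rab25 in the interaction term, Rab37, and the pathway genes of the change from GV to MII were named after their values were seen. Alternatives were TMM and median-of-ratios scaling, no filter, the DESeq2 1.42.0 Wald test, a replicate block, all libraries in one model, and leaving out each library.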

Additional observations from a re-analysis of the deposited data

Results flagged for a closer look

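For 4 RAB genes that averaged 100 counts or more, every library of KO was on one side of WT under one condition and on the other side under another. Chance can produce such patterns with 2 libraries per group. Over all genes tested, both KO libraries were above both WT libraries for 42.2% at GV, 30.3% at GVBD and 22.1% at MII. They were below for 9.69%, 17.9% and 10.3%. From GV to GVBD, the later libraries were both higher for 11.3% in WT and 12.5% in KO. They were both lower for 19.3% and 28.1%. The share of all genes that switched sides in this way was not computed. Rab3b was lower in KO at GV (-0.80 on the log2 scale) and higher in KO at GVBD (1.58). The difference between these values was not called by edgeR (adjusted p = 0.317) and was called by DESeq2 (adjusted p = 0.000225). Rab2b was at 0.23 at GV and -0.85 at GVBD (edgeR adjusted p of the difference 0.779), and Rab5b at 0.87 and -0.26 (0.828). Seen along the stages, Rab5b was at 0.27 from GV to GVBD in WT and at -0.86 in KO, which is the same difference.

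Rab25 was at 1.08 for KO against WT at GVBD and at -1.42 at MII, a difference that was not tested. From GV to GVBD it was at -0.69 in WT and 0.63 in KO, and that difference was not called by edgeR (adjusted p = 0.719) or DESeq2 (adjusted p = 0.728).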

How the results depend on the processing

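The number of RAB genes called moved with the setting in most comparisons. Where TMM scaling, DESeq2 or a left-out library moved a count, the share of all genes called is given in this report. For the other settings that share is not given, so their counts alone say nothing particular about the RAB genes. KO against WT at GV gave 0, but 1 without a filter and 2 with DESeq2 (0 to 1 with a library left out). KO against WT at GVBD gave 1, but 0 with TMM or median-of-ratios scaling, all 12 libraries in one model or a replicate block, and 2 with DESeq2 (0 to 2). MII against GV in WT gave 16, and 14 with DESeq2 (29.2%, against 29.3% of all genes). It gave 12 each without a filter and with the block, 8 with all libraries in one model, and 7 each with TMM and median-of-ratios scaling. MII against GV in KO gave 0, but 2 each without a filter, with DESeq2, with all libraries in one model and with the block (0 to 35). GVBD against GV gave 0, but in WT 1 each without a filter, with DESeq2 and with the block (0 to 2, and 0 to 1 in KO). KO against WT over all stages gave 0, but 1 each without a filter, with DESeq2 and with the block (0 to 3). The genotype difference in the change from GV to GVBD gave 0, but 1 with DESeq2. KO against WT at MII and the difference in the change from GV to MII stayed at 0 in every setting run. The cause of these changes was not tested.

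For the block, libraries with the same number did not consistently deviate together, with correlations between pairs of groups from -0.22 to 0.23, so the numbers were not taken to pair them. The pairing with crossed numbers, added after seeing the data, gave 0 RAB genes at GV and 0 at MII. Of 585 values of single genes under alternatives, 454 kept their direction and side of the threshold, 85 lost a call, 31 gained one and 15 changed sign. With a library left out, the values that changed sign ranged, in KO against WT, from -0.74 to 0.015 for Rab8b at GV, from -0.71 to 0.41 for Rab8b at GVBD, from -0.68 to 2.33 for Rab3d at MII and from -1.88 to 0.18 for Rab8a at MII. In MII against GV they ranged in KO from -0.50 to 0.39 for Rab10 and from -0.33 to 0.46 for Rab12, and in WT from -0.76 to 0.37 for Rab12, from -0.14 to 0.58 for Rab14 and from -0.29 to 0.52 for Rab2b. From GV to GVBD in KO, Rab3b ranged from -0.53 to 0.02. With the block Rab10 in KO became -0.046, and Rab12 in WT became 0.78 with TMM and 0.83 with median-of-ratios scaling, which move all genes up in this comparison (all-gene median from -1.06 to -0.14 with TMM). A pair of libraries per group and an unknown number of molecules limit what can be seen for rare RAB genes.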
